A study of Rattus norvegicus with 8 samples.

Results

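Of the 36741 nuclei in the table, 197 (0.536%) carried at least 2 of 6 transcripts used to mark macrophages and few transcripts of nodose sensory neurons, and these 197 nuclei are described here. A nucleus was selected when at least 2 of Csf1r, Mrc1, Cd163, F13a1, Ptprc and Cd74 each had at least 1 UMI (unique molecular identifier, a count of 1 captured RNA molecule) and when the UMIs of Scn10a and Slc17a6 summed to 2 or fewer. Of the 197, 160 carried exactly 2 of the 6 transcripts, 30 carried 3, 6 carried 4, 1 carried 5 and 0 carried all 6. The label macrophage-type was not met by the markers: no cluster of nuclei met the macrophage criteria, and the selected nuclei lay mostly in clusters led by glial and vascular genes. They are therefore called the selected nuclei.

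Nodose ganglia, which hold the cell bodies of vagal sensory neurons, came from untreated Long Evans rats aged 8 weeks, with 18 of each sex. Each of the 12 pools combined the ganglia of 1 side from 6 rats, with 3 pools for each combination of labelled sex and side. With 18 rats per sex, left and right pools of a sex drew on the same rats, and no rat can be followed through a pool. A pool name gives the labelled sex (M or F), the side (L or R) and the pool number, as in ML1 or FR3.

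Tissue macrophages engulf dying cells and debris, clear glycoproteins through scavenger receptors and present antigen on MHC class II. They depend on signalling through the receptor encoded by Csf1r, and the transcription factor PU.1, encoded by Spi1, drives many of their genes. In sensory ganglia they lie between blood vessels and the satellite glia that wrap each neuron, and they gather around neurons after nerve injury.

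The pools held 7140286 to 19456287 UMIs in all nuclei, and the selected nuclei of a pool held 27098 to 168137. A nucleus had a median of 2680 UMIs, and a selected nucleus 3486. The Y-linked genes Kdm5d and Eif2s3y went against the sex label in 2 pools: they summed to 2.13 CPM (UMIs of a gene per 1000000 UMIs of the nuclei) in ML1, labelled male, and to 87.9 CPM in FL1, labelled female. The libraries are therefore named by label, and the comparisons of shares and the counts of called genes are also given without these 2. All pools were spread over 8 sublibraries, which held 17 to 32 selected nuclei each, 0.389% to 0.696% of their nuclei. The same combination of barcoding wells occurred in more than 1 sublibrary for 3808 nuclei, 15 of them selected. P-values measure the spread between pools. They take the pools as independent, although left and right pools of a sex drew on the same rats. P-values by labelled sex may therefore be too small.

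The promoters of 3 of the 6 marker genes hold a core recognised by PU.1, and they are shown because the results turn on these genes appearing together. Csf1r encodes the receptor for CSF1 and IL-34 (chr18:56834129-56834378), F13a1 the A subunit of clotting factor XIII (chr17:28020947-28021196) and Mrc1 the mannose receptor (chr17:82157475-82157724). The 250 bases before each RefSeq start site (build GRCr8, plus strand) are printed 5′ to 3′ in lower case. Capitals mark the motif GAGGAAG, which was searched on both strands, so that a match on the other strand reads as its reverse complement.
Csf1r: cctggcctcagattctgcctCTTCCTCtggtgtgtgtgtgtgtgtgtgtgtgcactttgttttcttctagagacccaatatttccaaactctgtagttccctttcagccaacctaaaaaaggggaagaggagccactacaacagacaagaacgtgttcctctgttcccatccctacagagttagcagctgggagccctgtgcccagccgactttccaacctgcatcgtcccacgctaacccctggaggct
F13a1: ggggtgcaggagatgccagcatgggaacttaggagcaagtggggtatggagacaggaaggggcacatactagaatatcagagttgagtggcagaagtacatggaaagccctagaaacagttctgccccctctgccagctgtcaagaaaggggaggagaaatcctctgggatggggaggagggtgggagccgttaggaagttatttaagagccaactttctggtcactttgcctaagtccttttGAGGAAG
Mrc1: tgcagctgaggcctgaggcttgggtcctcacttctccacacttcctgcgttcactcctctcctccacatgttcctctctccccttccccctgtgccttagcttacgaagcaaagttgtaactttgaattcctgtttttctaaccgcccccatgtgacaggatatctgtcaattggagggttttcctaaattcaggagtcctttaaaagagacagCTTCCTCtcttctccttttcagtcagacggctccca

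All 6 marker genes were found in the RefSeq promoter table, and 3 held the motif in this window. It occurred in 10.2% of all 33469 promoters of the table, in 4 of the 17 promoters found for the macrophage genes outside the rule and in 4 of the 14 found for the haematopoietic signalling genes. A match is a run of letters and not evidence of binding. Spi1 itself had 6 UMIs in the 197 selected nuclei, 6.60 CPM against 0.783 CPM in the other nuclei with as few neuronal transcripts.

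The rule chose these nuclei by their counts of the 6 markers, so the levels of those genes describe the choice and nothing is tested on them. Mrc1 was the most frequent, detected in 111 of the 197 nuclei (56.3%) with 136 UMIs. Ptprc, the leukocyte phosphatase CD45, was detected in 77, Csf1r in 72, F13a1 in 62, Cd163, the scavenger receptor for haemoglobin bound to haptoglobin, in 59 and Cd74, the invariant chain of MHC class II, in 58. Together the 6 genes gave 507 UMIs, and 129 of the nuclei had exactly 2 of them. The richest nucleus had 8, and 11 nuclei had at least 5.

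These transcripts were not confined to the selected nuclei. Across the whole table Mrc1 had 1000 UMIs in 853 nuclei, and it was detected in 2.63% of the nuclei over the neuronal limit, whose median depth was 4205 UMIs. The other 5 markers were detected in 0.782% to 1.87% of the nuclei over that limit. Under the limit, a nucleus with 1 marker was more often found with another. Of 190 such nuclei with Csf1r, 22.1% also had Mrc1, against 1.83% of those without Csf1r. Of 276 with Ptprc, 11.2% had Cd74, against 0.972% of those without. Nuclei with more markers were also deeper, with medians of 1761 UMIs at 0 markers, 2318 at 1 and 3486 in the selected nuclei, and the part of depth in this was not tested. The leading pairs among the selected nuclei were Csf1r with Mrc1 in 42, Ptprc with Cd74 in 31 and Mrc1 with Cd163 in 30.

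At the edge of the rule, 1035 nuclei under the neuronal limit carried 1 marker, and 32 nuclei with at least 2 markers had a neuronal sum of 3. In all, 260 nuclei with at least 2 markers exceeded the neuronal limit, with a median of 9942 UMIs. Of the selected nuclei, 75 had a neuronal sum of 0, 77 had 1 and 45 had 2. None of the 197 lacked UMIs of a broader list of 12 neuronal genes, which includes Snap25, Syt1 and Nefm, and their median on that list was 25 UMIs.

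The selected nuclei did not form a group of their own. Clustering all nuclei gave 27 clusters, 17 of which held selected nuclei, and a finer clustering gave 44. No cluster in either met the macrophage criteria of 3 markers at least 2-fold higher with 1 among its 10 leading genes. The largest share, 69 nuclei (35.0%), lay in cluster 5, a satellite glia-like cluster led by Apoe, Fbln2 and Tyrp1, with the potassium channel gene Kcnj10 of satellite glia among its 10 leading genes. A further 30 lay in cluster 10, where endothelial Adgrf5 and Adgrl4 led together with the smooth muscle genes Acta2 and Myh11, and which is left unnamed because markers of both vascular cell types were raised. Another 29 lay in cluster 3, myelinating Schwann cell-like with the myelin gene Prx among its leading genes. Cluster 8, unnamed and led by Lypd1, Tyrp1 and Th, held 26, and cluster 2, unnamed and led by Cartpt and Kctd12, held 16.

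**Figure D1:**
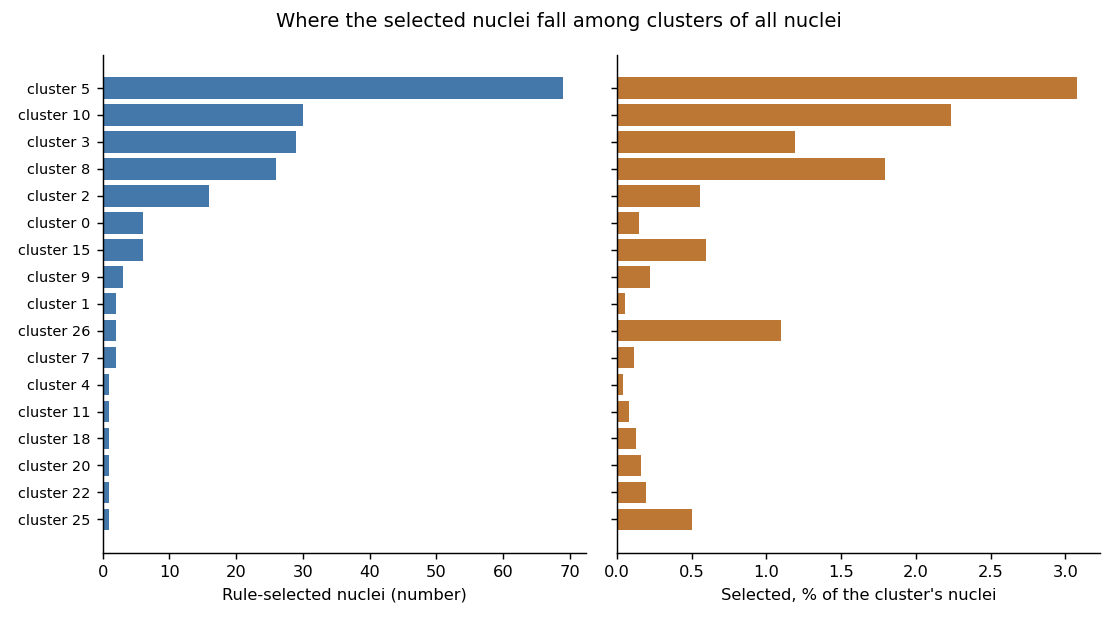
Number of selected nuclei in each of the 17 clusters of all nuclei that held any (left) and their share of the cluster's nuclei in percent (right), by cluster number. Clusters 5, 10, 3 and 8 held 69, 30, 29 and 26 nuclei, and in no cluster did the share exceed 3.08%.

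Even in cluster 5 the selected nuclei were 3.08% of 2240, and in cluster 10 they were 2.24% of 1341. They were present in cluster 5 in all 12 pools, at 0.578% to 8.06% of its nuclei, and in cluster 10 in 11 pools. Clustering the 197 nuclei alone gave 6 groups of 22 to 49, and none of these met the macrophage criteria either. Group 5, with 22 nuclei, was led by the Schwann cell genes Bcas1 and Mlip and held 12394 CPM of the myelinating Schwann cell list. Group 1, with 42 nuclei, was led by neuronal genes such as Csmd3, Ndst4 and Cntn3 and held 10028 CPM of the neuronal list. Group 3, with 29 nuclei, held 1039 CPM of the endothelial list and 1135 CPM of the mural list. The macrophage genes outside the rule summed to 546 CPM in group 0, the largest with 49 nuclei, and to 429 CPM in group 4. In the remaining groups they summed to 278 to 373 CPM. The median doublet score was 0.067 in the selected nuclei and 0.0486 in the others under the neuronal limit. In the selected nuclei of clusters 5, 10, 3 and 8 the medians were 0.0437, 0.0794, 0.0340 and 0.102. The other nuclei of these clusters had 0.0425, 0.0762, 0.0260 and 0.106. The 5% of all nuclei with the highest scores held 5 selected nuclei, 2.54% of them, and 4.02% of the others under the limit.

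Macrophage genes that the rule did not use were nevertheless more abundant in the selected nuclei. A list of 27 such genes summed to 371 CPM there, to 275 CPM in nuclei with 1 marker, 157 CPM with 0 markers and 139 CPM over the neuronal limit. It was higher in the selected nuclei than in the other nuclei under the limit in all 12 pools, at 200 to 589 CPM (median 366) against 146 to 186 CPM (median 166). The 2 sets of values do not overlap. Because nuclei were chosen by co-occurring markers of the same cells, this is a description and carries no test. Of the 27 genes, 24 were detected, and Vsig4, Ms4a7 and Cd14 had 0 UMIs, which at 908593 UMIs allows up to 3.30 CPM each.

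**Figure D2:**
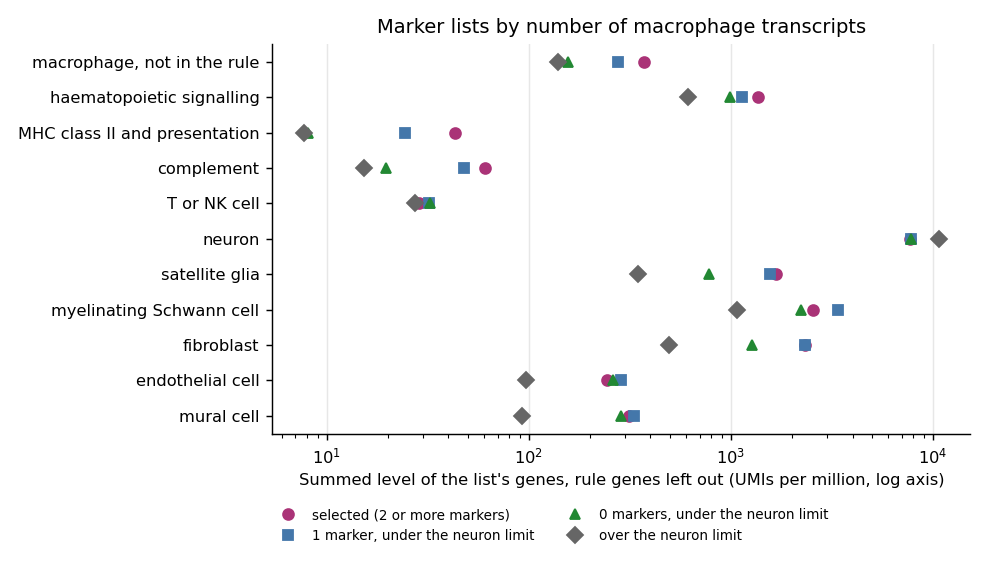
Summed level of marker lists without the rule's genes, in CPM on a log axis, for selected nuclei, nuclei with 1 or 0 markers under the neuronal limit and nuclei over it. The macrophage list stood at 157, 275 and 371 CPM with 0, 1 and at least 2 markers, and the neuronal list at 7713 to 7764 CPM in these nuclei.

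The macrophage list was uneven. Mertk, a receptor for dying cells that satellite glia also express, gave 115 of its 337 UMIs, and the lysosomal protease gene Lgmn gave 58. The defining genes of macrophages were close to the limit of detection: the complement genes C1qa, C1qb and C1qc had 2 UMIs each, Cd68 had 2, Cx3cr1 had 3 and Aif1 and Tyrobp had 1 each. Stab1, a scavenger receptor of resident macrophages and sinusoidal endothelium, had 37 UMIs at 33.2 ± 21.9 CPM (SD, n = 12 pools) against 7.73 ± 2.64 CPM in the other nuclei under the limit. It was higher in 10 of 12 pools and was detected in 15.7% of the selected nuclei against 1.67% of those over the limit. In all, 73.6% of the selected nuclei had at least 1 UMI of the list, against 27.3% of the others under the limit and 42.9% of those over it. Thinned to 1000 UMIs per nucleus, which left out 6 selected nuclei, these shares were 30.4% in the selected nuclei, 23.4% with 1 marker, 14.0% with 0 markers and 11.7% over the limit. Of the 260 nuclei over the limit with at least 2 markers, 86.5% had a UMI of the list, and 21.2% did when thinned.

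Transcripts of other cell types were also counted in these nuclei, and the part of free RNA in them was not tested. The neuronal list stood at 7713 CPM in the selected nuclei and 7763 CPM in the others under the limit, the satellite glia list at 1665 and 833 CPM, and the fibroblast list at 2339 and 1353 CPM. The satellite glia list was higher in the selected nuclei in 12 of 12 pools. Ranked by the ratio of pool means (pseudocount 5 CPM) among genes higher in all 12 pools, the 25 leading genes held glial and matrix genes such as Ednrb, the endothelin receptor of glia, Fbln5, Col9a3, Sdc4 and Kctd12, beside the leukocyte gene Arhgap15 and the Notch effector Rbpj. For comparison, 213 of the 9357 genes detected in at least 5% of the selected nuclei were at least 2-fold higher there, and the median log2 ratio of all of them was 0.13. The T or NK cell list stood at 28.6 and 32.5 CPM. Cd3d, Cd3e and Cd3g of the T cell receptor complex had 0 UMIs, and the adaptor gene Skap1 had 19 of the 26 UMIs of that list.

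Each selected nucleus was next set against its own cluster. For each gene, the UMIs expected in the selected nuclei were computed from the other nuclei of the same clusters under the same neuronal limit, a comparison chosen after the clusters had been seen. The satellite glia list then had 1513 UMIs against 1512 expected and the neuronal list 7008 against 6619, while the macrophage list had 337 against 229. Mertk had 115 against 102, and Apoe, the lipid carrier that glia and macrophages both make, 1201 against 1073. Over all 9566 genes with at least 10 UMIs in the selected nuclei, the median ratio of observed to expected UMIs was 1.02, and 88 genes reached 2.

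**Figure D3:**
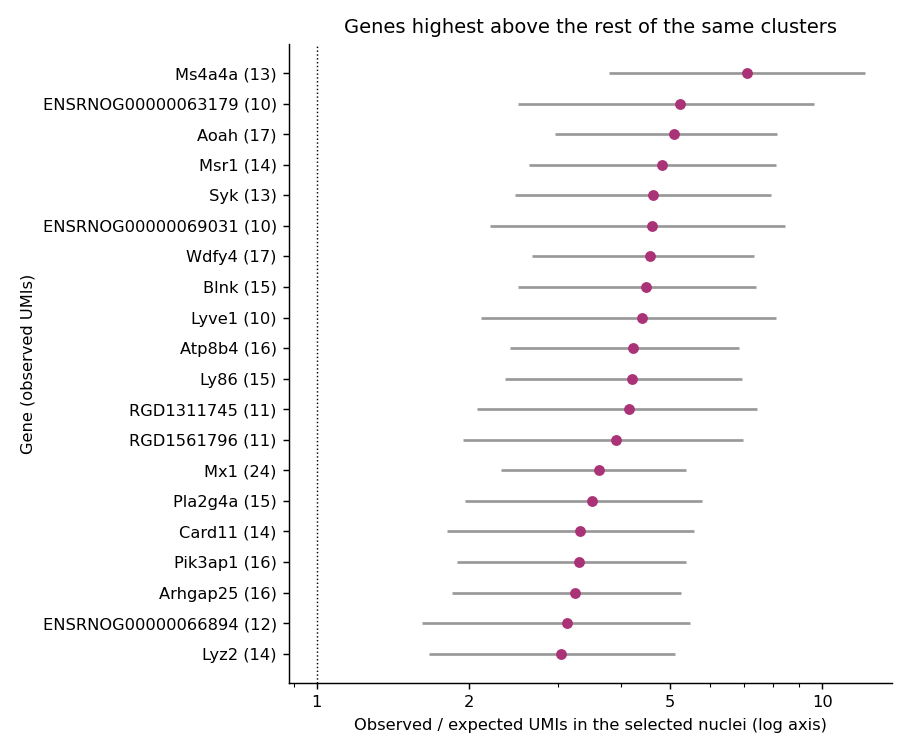
Ratio of observed to expected UMIs in the selected nuclei, on a log axis, for the 20 genes with the highest ratio among those with at least 10 UMIs; bars are exact Poisson 95% intervals of the observed count, and observed UMIs are in parentheses. Ms4a4a, Aoah, Msr1 and Syk stand above 4, and the expected level is marked at 1.

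The genes with the highest ratios, ranked without reference to any list, included several known from myeloid and other leukocytes. Ms4a4a, a membrane protein of macrophages, led with 13 UMIs against 1.83 expected, a ratio of 7.11 (exact Poisson 95% interval 3.78 to 12.2, counting error only). Aoah, the hydrolase that inactivates bacterial lipopolysaccharide, had 17 against 3.34, after the unnamed gene ENSRNOG00000063179 with 10 against 1.91, and Msr1, the class A scavenger receptor, with 14 against 2.91. The kinase Syk, which relays signals of Fc and lectin receptors, had 13 against 2.81. Wdfy4, needed for cross-presentation in dendritic cells, had 17 against 3.72, the adaptor Blnk had 15 against 3.35 and Lyve1, a hyaluronan receptor of perivascular macrophages and lymphatic vessels, had 10 against 2.27. Ly86, Pik3ap1, Lyz2, the leukocyte transcription factor gene Ikzf1 and the thromboxane synthase gene Tbxas1 were also among the 25 with the highest ratios. The list further held genes without such a role, among them Snrpc and Taf1c. These genes were ranked on the nuclei the rule chose, so the ranking is a description with no test.

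The haematopoietic signalling list, genes through which blood cells relay receptor signals, had 1233 UMIs against 1008 expected (ratio 1.22, interval 1.16 to 1.29), with 16 of 20 genes above expectation. Arhgap15, a Rac regulator of leukocytes, had 123 UMIs (135 CPM) and was higher in the selected nuclei in all 12 pools. It was detected in 38.6% of the selected nuclei and in 8.81% of those over the neuronal limit. Against 66.7 expected, its ratio was 1.84 (interval 1.53 to 2.20). Dock8, Lyn and Inpp5d, which control the leukocyte cytoskeleton and receptor signalling, had 59, 73 and 41 UMIs against 35.9, 43.7 and 19.3. Dock10 gave 618 UMIs of the list, against 569, and Runx1 had 74 against 73.9.

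Antigen presentation rested on few UMIs. The 10 genes of the MHC class II list other than Cd74 had 39 UMIs against 12.2 expected, a ratio of 3.20 (interval 2.28 to 4.38), and 8 of 10 were above expectation. Cd74, of the same list, was a marker of the rule and was detected in 58 of the selected nuclei. The ratio is therefore a description with no test. The class II chains RT1-Db1, RT1-Bb and RT1-Da had 7, 5 and 4 UMIs against 0.997, 0.590 and 0.692, and the master regulator Ciita had 5 against 1.51. RT1 genes are near-identical relatives, so these values are uncertain where reads could match more than 1 of them. The costimulatory genes Cd80 and Cd86 had 0 UMIs.

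The complement list had 55 UMIs against 25.6, a ratio of 2.15 (interval 1.62 to 2.80). The scavenger and endocytic receptor list had 332 against 291, a ratio of 1.14 (interval 1.02 to 1.27). Within it, Msr1, Stab1, with 37 against 15.7, and Colec12, with 40 against 23.4, stood above their clusters. Lrp1 (150 against 158) and Scarb1 (77 against 87.5), which many cell types express, did not. The Fc receptor list had 58 against 44.7, a ratio of 1.30 (interval 0.986 to 1.68). Of its genes, Fcgr1a, the high-affinity receptor for immunoglobulin G, had 4 against 0.676, and Fcer1g, their shared signalling chain, 26 against 21.3.

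Other macrophage lists had ratios closer to 1. Their intervals cover counting error only, not the spread between nuclei or pools, so they do not show which ratios differ from 1. The intervals held 1 for iron and haem handling (0.989, 0.847 to 1.15), the colony-stimulating factor and TGF-beta axis (0.974, 0.884 to 1.07), pattern recognition (1.03, 0.809 to 1.29) and purinergic and microglial-type genes (1.04, 0.892 to 1.20). Clearance of dying cells and lipid stood slightly above (1.08, 1.03 to 1.13) and macrophage transcription factors slightly below (0.922, 0.873 to 0.972). Within the last, Spi1 had 6 UMIs against 1.32, while Zeb2, which glia also use, held 1132 of the 1342 UMIs of the list. The CSF1R ligand genes Il34 and Csf1, which are made by surrounding cells, had 112 against 91.7 and 27 against 17.6. Among lists of other leukocytes, T or NK cells had 26 UMIs against 18.3 expected, neutrophils 2 against 0.514, monocytes 72 against 73.8, mast cells 68 against 68.9 and dendritic cells 86 against 66.3 (ratio 1.30, interval 1.04 to 1.60). The B cell list had 1120 UMIs against 1299, nearly all from Ebf1, which other cell types also express.

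Within cluster 10 the selected nuclei stood apart from their neighbours in vascular genes as well. The 30 nuclei had 958 CPM of the endothelial list against 2905 CPM in the 1087 other nuclei of that cluster under the limit, and 1028 CPM of the mural list against 3162 CPM. Vwf, the von Willebrand factor of endothelium, stood at 38.3 against 335 CPM, and the smooth muscle myosin gene Myh11 at 198 against 1452 CPM. Their MHC class II genes summed to 83.0 against 11.5 CPM, from 13 UMIs. Glial Tyrp1 and Tnc were higher in them, at 306 against 69.7 CPM and 230 against 32.7 CPM, and the macrophage list stood at 345 against 268 CPM. The neuronal list was also higher in these nuclei (6359 against 4066 CPM), as were the satellite glia (1526 against 871 CPM) and fibroblast lists (2209 against 1631 CPM). The myelinating Schwann cell list was lower, at 1520 against 1889 CPM. In clusters 5, 3 and 8 the macrophage list was 1.36, 1.58 and 1.65 times the level of the other nuclei under the limit, and the myelinating Schwann cell list of cluster 3 stood at 11146 against 12028 CPM.

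The 7 nuclei with at least 4 of the markers that chose them varied in the macrophage genes outside the rule. The nucleus with 5 markers, from FR3 and cluster 5, had 14736 UMIs, 6 of them from the rule's genes and 14 from the macrophage list (Lyz2, Cx3cr1, Stab1, Lyve1, Mertk and Lgmn among its genes), together with 87 UMIs of the neuronal list and 43 of the satellite glia list. Of the other 6, 1 from FL3 in cluster 10 had C1qa, Lyz2 and Mertk, and 1 from FL1 in cluster 8 had 9 UMIs of the macrophage list, with Stab1, Mertk and Lgmn among its genes. The remaining 4 held 1 to 6 UMIs of that list, and in 2 of them the 1 UMI was Mertk. A nucleus of FL1 with 3 markers held 7 UMIs, 1 each of C1qa, Aif1, Lyve1, Folr2, Mertk, Lgmn and Hpgds. Each of the 7 had UMIs of the neuronal list, from 4 to 299.

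The share of selected nuclei ranged from 0.202% of the nuclei in ML1 (7 of 3457, exact Clopper-Pearson 95% interval 0.0814% to 0.417%) to 0.683% in FL1 (21 of 3076, 0.423% to 1.04%). Left pools had 0.474 ± 0.190% (SD, n = 6 pools) and right pools 0.557 ± 0.134%, with 0.202% to 0.683% on the left and 0.366% to 0.671% on the right, so that the sides overlapped almost wholly. The difference, right minus left, was 0.0829 percentage points (exact permutation test within labelled sex, two-sided, 400 relabellings, p = 0.33, adjusted over 3 tests 0.33). In nuclei thinned to 1000 UMIs, where 40 qualified, it was 0.117 points (exact permutation p = 0.01). As a share of the nuclei under the neuronal limit it was -0.0288 points (exact permutation p = 0.875). Without ML1 and FL1 it was 0.0672 points (exact permutation p = 0.43).

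**Figure D4:**
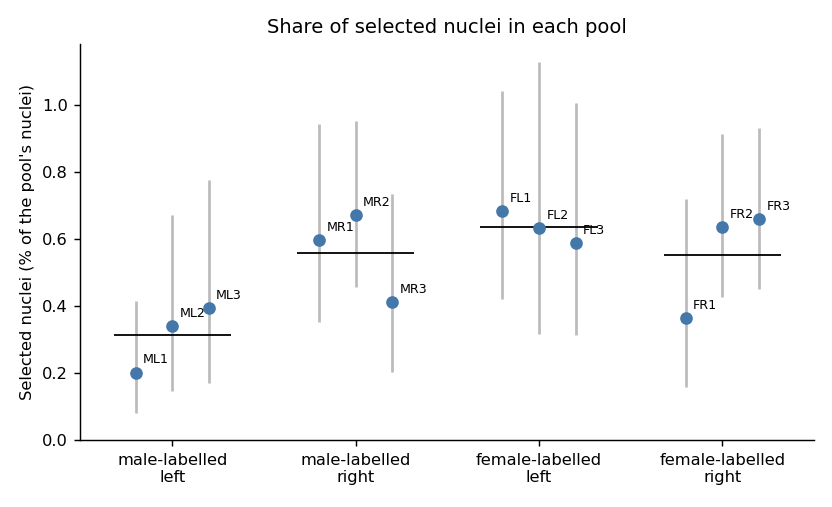
Selected nuclei as a percentage of the nuclei of each pool, by labelled sex and side (3 pools per group); bars are exact Clopper-Pearson 95% intervals and lines are group means. ML1 is lowest at 0.202%, FL1 highest at 0.683%, and the intervals of most pools overlap.

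Female-labelled pools had 0.595 ± 0.116% and male-labelled pools 0.436 ± 0.172% (SD, n = 6 each), a difference of 0.158 points (exact permutation p = 0.115, adjusted 0.173). The test took the 6 pools of a label as independent, although its left and right pools drew on the same rats. Of the female-labelled pools, FR1 stood apart at 0.366%, and the other 5 lay between 0.590% and 0.683%. The difference passed the threshold when MR2 was left out (exact permutation p = 0.04) or FR1 (p = 0.035, exact permutation), and as a share of the nuclei under the neuronal limit (0.460 points, exact permutation p = 0.04). In thinned nuclei it was -0.00368 points (exact permutation p = 0.915). Without ML1 and FL1, the pools whose sex genes went against the label, it was 0.0937 points (exact permutation p = 0.367).

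Right minus left was higher in male-labelled than in female-labelled pools: the difference between them, female-labelled minus male-labelled, was -0.328 points (exact permutation p = 0.07, adjusted 0.173). It passed when MR3, FR2 or FR3 was left out (exact permutation p = 0.045, 0.04 and 0.02) and without the 15 nuclei whose wells recurred (-0.336 points, exact permutation p = 0.02). With no UMI of Scn10a or Slc17a6 allowed it was -0.183 points (exact permutation p = 0.025). It was -0.814 points as a share of the nuclei under the neuronal limit (exact permutation p = 0.015). Without ML1 and FL1 it was -0.249 points (exact permutation p = 0.17). Side labels were permuted within labelled sex, so these p-values refer to no side difference in either sex, not to equal side differences.

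Of the marker genes, Mrc1 varied from 55.9 to 295 CPM between pools and Csf1r from 33.8 to 177 CPM. The macrophage list outside the rule was 285 ± 74.2 CPM on the left (n = 6 pools, 200 to 369) and 422 ± 90.3 CPM on the right (314 to 589) in the selected nuclei. These ranges overlap between 314 and 369 CPM. In the other nuclei under the limit the list stood at 165 CPM on both sides. The list was not tested as a whole, and 0 of its 27 genes had enough UMIs to be tested singly. Of the right-side nuclei 52 of 129 (40.3%) lay in cluster 5, against 17 of 68 (25%) on the left, and the unselected nuclei of cluster 5 under the limit had 309 CPM of the list. The part of cluster membership in the side values was not tested.

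Sums of the selected nuclei were tested gene by gene between pools with edgeR's quasi-likelihood test, over 1574 genes. By side, 5 genes (0.318% of those tested) passed at a Benjamini-Hochberg adjusted p under 0.05, all lower on the right, and without adjustment 137 were under 0.05. None of the 5 is on the macrophage, leukocyte or neuronal lists. Absence from the neuronal list does not show that a gene is not neuronal. Ntng1 and Cntnap5a were among the 10 leading genes of cluster 9, Tafa2 of cluster 18 and Kcnd3 of cluster 25, all unnamed. Cluster 18 also had the neuronal genes Ndst4 and Cntn3 among its leading genes. Cntnap5a and Cntnap5c encode neurexin-family adhesion proteins, Ntng1 a netrin-like guidance protein, Kcnd3 a potassium channel and Tafa2 a small secreted protein. Of the neuronal list 10 genes were tested and 0 passed, with a median log2 fold change of 0.23. Only 7 of 145 genes on the macrophage and leukocyte lists could be tested (Mrc1, Apoe, Abca1, Lrp1, Dock10, Tgfbr2 and Zeb2), and 0 of them passed in either direction. Mrc1 was even between sides, with a log2 fold change of -0.02 ± 0.32 (SE, edgeR adjusted p = 0.994).

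Cntnap5a differed most. Its levels on the left were 203 CPM in ML1, 447 in ML2, 332 in ML3, 640 in FL1, 426 in FL2 and 848 in FL3. On the right they were 59.8 CPM in MR1, 186 in MR2, 324 in MR3, 171 in FR1, 133 in FR2 and 184 in FR3. FL3 and FL1 were highest, and the sides overlapped only where ML1 fell below MR3. The log2 fold change, right over left, was -1.68 ± 0.29 (SE, edgeR adjusted p = 0.00659).

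Kcnd3 ranged from 112 CPM (ML2) through a median of 223 to 400 CPM (FL2) on the left and from 49.9 CPM (MR1) through 74.1 to 115 CPM (MR2) on the right. The sides overlapped only in ML2 and MR2. Its log2 fold change was -1.46 ± 0.32 (edgeR adjusted p = 0.0359).

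Ntng1 had 0 UMIs in ML1 and 295 to 606 CPM in the other left pools, against 66.4 to 202 CPM on the right. ML1, with 7 nuclei, was thus the lowest pool of all. The log2 fold change of Ntng1 was -1.51 ± 0.33 (edgeR adjusted p = 0.0359). Tafa2 ranged over 221 to 676 CPM on the left and 108 to 300 CPM on the right (log2 -1.30 ± 0.28, edgeR adjusted p = 0.0359), and Cntnap5c over 135 to 431 and 57.2 to 236 CPM (-1.19 ± 0.25, edgeR adjusted p = 0.0359). Both overlapped between sides.

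**Figure D5:**
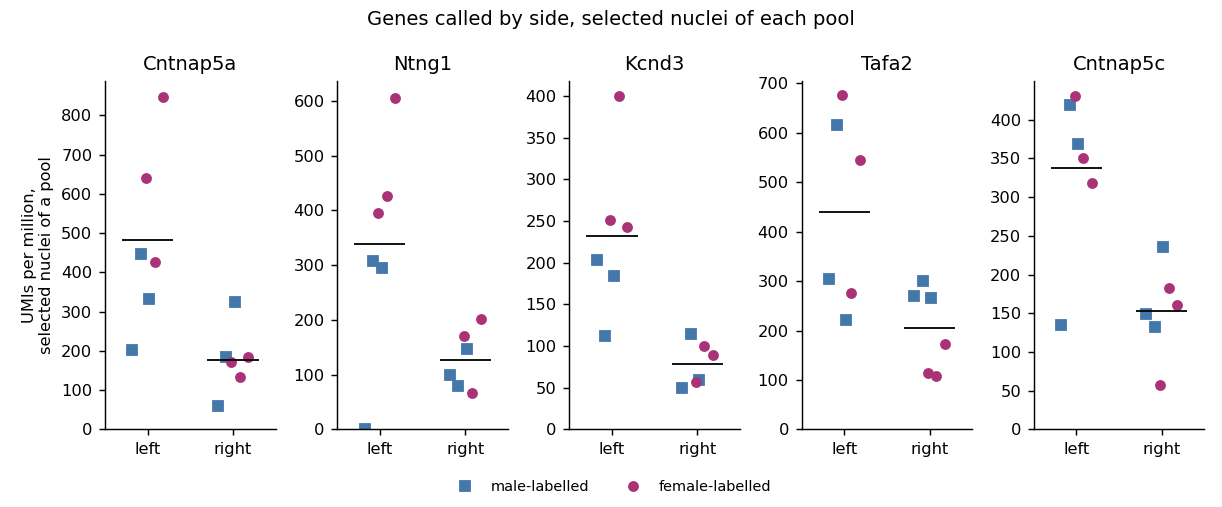
Level of the 5 genes called by side in the selected nuclei of each pool, in CPM of the pool's selected nuclei, with lines at the mean of 6 pools per side. The means on the left and right were 483 and 176 CPM for Cntnap5a and 232 and 78.3 CPM for Kcnd3, and ML1 had no Ntng1.

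Cluster 8 gave more UMIs than any other cluster for Cntnap5a (136 of 284), Tafa2 (125 of 294), Cntnap5c (84 of 213) and Ntng1 (75 of 203). For Kcnd3 cluster 5 gave the most, 32 of 131. Of the Cntnap5a UMIs, 34 came from 1 nucleus of FL1. Cluster 8 held 13 of 68 selected nuclei on the left (19.1%) and 13 of 129 on the right (10.1%). Cluster 2 held 2 (2.94%) and 14 (10.9%). The clusters other than 5, 10, 3, 8 and 2 together held 15 (22.1%) and 12 (9.30%). Without the 26 nuclei of cluster 8, an alternative added after seeing the data, 0 genes passed. Cntnap5a then had a log2 fold change of -1.34 (edgeR adjusted p = 0.19), and Kcnd3 had too few UMIs for the test. The part of cluster 8 in the side difference was not tested further, and that of the other clusters was not tested. No gene passed either when FL1, FL3, FR2 or FR3 was left out, 1 passed without MR1, MR2 or FR1, and 10 and 17 passed without ML3 and ML1. Without ML1 and FL1 together 5 passed. In the other nuclei under the neuronal limit, Cntnap5a stood at 483 ± 75.7 CPM on the left and 443 ± 39.8 CPM on the right (SD, n = 6 pools), and Kcnd3 at 226 ± 36.0 and 238 ± 17.8 CPM. The summed neuronal list of the selected nuclei was 6813 ± 2256 CPM on the left and 7834 ± 1181 CPM on the right.

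By labelled sex, 0 of the 1574 genes passed in edgeR (0% of those tested), with 58 at an unadjusted p under 0.05. DESeq2 also called 0, with 48 at an unadjusted p under 0.05. The smallest p belonged to Pxdn, a peroxidase of basement membranes, at 319 ± 121 CPM in female-labelled and 181 ± 59.6 CPM in male-labelled pools (SD, n = 6, log2 fold change 0.83 ± 0.24 SE, edgeR adjusted p = 0.996). The sialyltransferase gene St6gal1 was next at 288 ± 36.9 and 170 ± 60.9 CPM, and the neuronal adhesion gene Cntnap2 at 2385 ± 1091 and 4110 ± 1713 CPM, both at an edgeR adjusted p of 0.996. The pools of the 2 labels overlapped for all 3 genes. Without ML1 and FL1, edgeR again called 0 genes by labelled sex, with 101 under 0.05 before adjustment.

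For the difference in side effect between labelled sexes, 0 of 1574 genes passed (0% of those tested), with 67 under 0.05 before adjustment, and in DESeq2 0 passed, with 46 before adjustment. Without ML1 and FL1, 0 passed in edgeR, with 80 before adjustment. The smallest p belonged to Atxn1 (log2 -1.66 ± 0.48), ENSRNOG00000066325 (-2.54 ± 0.82) and Bnc2, a zinc-finger gene of fibroblasts (-3.57 ± 1.17), each at an edgeR adjusted p of 1.00. With 7 to 32 selected nuclei per pool, a change in a gene with a few UMIs was not detectable at this depth.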

How the data were processed

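Single-nucleus RNA was barcoded with Parse Evercode version 2 kits in 8 sublibraries, per the labels' protocols. The deposited table holds counts of UMIs for 30560 genes in 36741 nuclei (139965360 in all), and every value column was used. The submitters' processing notes name R 4.3.2, Seurat 4.1.3 and the build mRatBN7.2, with the aligner and annotation not given in the sources used here. Both the members and the gene lists were chosen with earlier results of these data known. The comparison within clusters and the alternatives without cluster 8 or recurring wells were chosen after seeing the data.

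Nuclei were clustered with scanpy 1.11.5 and leidenalg 0.10.2 (3000 variable genes, 30 components, 20 neighbours, resolution 1, finer 2). A cluster name needed 3 markers at least 2-fold higher and detected in 10% of its nuclei, of which 1 or more had to be a top 10 gene of the cluster. Doublets were scored with Scrublet (expected rate 0.06) and not removed, but leaving out the 1838 highest scores was an alternative. CPM are UMIs per 1000000 UMIs of the nuclei summed. UMIs of selected nuclei were summed per pool and tested with edgeR 4.0.16 (quasi-likelihood, R 4.3.3, labelled sex and side as terms), with DESeq2 1.42.0 as an alternative. Shares were compared by exact permutation of pools within the other label (scipy 1.17.1). Named genes are those of the rule, the leading genes of each list, the 25 genes with the highest ratio to other nuclei, and the genes called between pools or, with none called, the 3 with the smallest p. Other genes were named after their values were seen.

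Replicate numbers are not stated to pair the pools. The same-numbered left and right pools had correlations of deviations from -0.128 to 0.067, and those of different numbers from -0.0997 to 0.118. With so few nuclei per pool, these values cannot show whether the numbers pair the pools. On simulated counts for the side comparison over 1574 genes, 71 of 88 genes changed 2-fold (80.7%) and 112 of 112 changed 4-fold were recovered, with 6 false calls. The simulation gave every gene the same dispersion and held no single nuclei with many UMIs of a gene, so recovery in the real counts may be lower. Intervals are exact Clopper-Pearson or Poisson 95% intervals and cover counting error only. A count of 0 was read as up to 3 counts. A few results are not reported here. Listed genes with no unique entry in the gene table were not analysed here.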

Additional observations from a re-analysis of the deposited data

Results flagged for a closer look

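Among 83 sets of pools examined, 6 held a pool far from the rest of its set, where chance flags about 1 in 20. The share of selected nuclei in FR1 was 0.366%, and the other female-labelled pools lay between 0.590% and 0.683%. Csf1r stood at 177 CPM in MR3 against 53.5 to 99.7 CPM in the other right pools, from 6 UMIs. Cd163 stood at 147 CPM in MR3, from 5 UMIs, and the rest of the male-labelled pools lay between 33.8 and 70.7 CPM.

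Bnc2 stood at 375 CPM in FL2, and the other left pools lay between 0 and 136 CPM. Cntnap2 stood at 4536 CPM in FL1, where the rest of the female-labelled pools had 1429 to 2278 CPM, and 1 nucleus of FL1 held 245 of the 2811 UMIs of all selected nuclei. The myelinating Schwann cell list stood at 9192 CPM in ML1, which had 7 selected nuclei, and at 1230 to 4105 CPM in the other left pools.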

How the results depend on the processing

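The count of 5 genes by side was 0 with at least 3 markers, 13 without Cd74 in the rule, 0 with no neuronal UMI allowed, 0 without cluster 8 and 15 without recurring wells, and 0 to 17 when 1 pool was left out; the cause was not tested. With replicate number as a block it was 1, and the side difference in share was 0.0829 points (exact sign-flip permutation p = 0.281). RLE scaling gave 5 genes, DESeq2 6 and no low-count filter 6. None of the 5 genes changed sign in the alternatives where it could be tested. Cntnap5a lost its call in 6 of 22, Ntng1 in 11 of 22, Kcnd3 in 12 of 19, and Tafa2 and Cntnap5c in 13 of 22 each. By labelled sex the count was 0 in all 22 alternatives, and for the interaction it was 1 with no low-count filter and 0 in the others.

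The side difference in share passed when nuclei were thinned (0.117 points) and ranged over 0.0286 to 0.125 with 1 pool left out. The sex difference passed as a share of nuclei under the neuronal limit (0.460) and ranged over 0.111 to 0.205. The interaction passed with no neuronal UMI allowed (-0.183), without recurring wells (-0.336) and under the neuronal limit (-0.814), and ranged over -0.402 to -0.234. An analysis of a macrophage cluster alone was not run, since no cluster met the criteria. Depth limits these results: 1574 of 30560 genes could be tested.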
